A study of Mus musculus with 6 samples.

Results

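Transcripts of 33 genes for cholesterol and fatty acid synthesis were followed in tumour monocytes, out of 56980 genes in the deposited table. They were chosen by symbol for their known roles, with earlier results of these data known. The list holds 18 enzymes of sterol synthesis, 10 enzymes of fatty acid synthesis, desaturation and elongation, 4 genes that control the sterol-regulated transcription factor SREBP-2, and 1 sterol carrier. All 33 symbols were found and all 33 passed the filter on low counts. The cells were sorted from tumours of B16F10-mCherry, a mouse melanoma line that carries a red fluorescent marker, as CD11b+ Ly6C-high Ly6G-negative monocytes. The treatments are labelled LNP-GFP (3 libraries), lipid nanoparticles for green fluorescent protein as the control, and LNP-Gsdme (3 libraries), lipid nanoparticles that deliver gasdermin E as mRNA into the tumour. Gasdermin E forms membrane pores that lead to lytic cell death. All 6 libraries are labelled wild type, so both groups share the tumour line, the genotype and the nanoparticle carrier. The sources used here give no strain, age, dose or time. Nor do they say whether each library is a separate animal, and the p-values cover the spread among these 6 libraries, which may be technical. In the sentences below, values per library are listed for replicates 1 to 3, LNP-GFP before LNP-Gsdme, with n = 3 per group for every SD and SE.

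Cells make cholesterol from acetyl-CoA through the mevalonate pathway, which ends in squalene, and then through ring closure and the stepwise trimming of lanosterol. When sterols in the endoplasmic reticulum run low, the escort protein SCAP carries SREBP-2 to the Golgi, where proteases release a fragment that enters the nucleus and switches on most genes of the pathway. When sterols are plentiful, the INSIG proteins hold SCAP back. Fatty acid synthesis starts from the same acetyl-CoA and is followed by enzymes that lengthen the chains or add double bonds. In macrophages, interferon-induced 25-hydroxycholesterol is known to block SREBP processing, and both pathways are known to shift with inflammatory activation.

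Promoter windows show which letters of known regulatory elements lie near the start sites of these genes. RefSeq windows (build GRCm38.p6, 250 bases before to 50 bases after each start) were matched by symbol for 26 of the 33 genes, in 33 windows. On both strands 3 motifs were searched: the sterol response element to which SREBP binds (TCACNCCAC), the CCAAT box of the factor NF-Y (CCAAT), and the GC box of Sp1-type factors (GGGCGG). NF-Y and Sp1 are known partners of SREBP at such promoters. The CCAAT box was present for 14 of the 15 sterol enzyme genes with a window and for 4 of the 7 fatty acid genes, against 41.06% of all genes in the table. For the GC box the counts were 14 of 15 and 3 of 7, against 38.2% of all genes. The sterol response element in this exact form was present for Hmgcs1 alone, against 1.44% of all genes. Windows of Cyp51 and Fasn are shown because these genes passed the test below and hold a searched motif, and that of Hmgcs1, chosen after the search, because it is the one with the sterol response element. Matched letters are in capitals, on either strand, the remaining letters in lower case, and each window reads in the direction of transcription.
Cyp51: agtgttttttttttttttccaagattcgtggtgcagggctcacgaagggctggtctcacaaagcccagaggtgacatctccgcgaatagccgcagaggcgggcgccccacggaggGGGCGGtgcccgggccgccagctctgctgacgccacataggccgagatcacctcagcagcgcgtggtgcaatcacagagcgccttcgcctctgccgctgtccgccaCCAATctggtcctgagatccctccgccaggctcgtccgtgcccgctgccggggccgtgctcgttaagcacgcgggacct
Fasn: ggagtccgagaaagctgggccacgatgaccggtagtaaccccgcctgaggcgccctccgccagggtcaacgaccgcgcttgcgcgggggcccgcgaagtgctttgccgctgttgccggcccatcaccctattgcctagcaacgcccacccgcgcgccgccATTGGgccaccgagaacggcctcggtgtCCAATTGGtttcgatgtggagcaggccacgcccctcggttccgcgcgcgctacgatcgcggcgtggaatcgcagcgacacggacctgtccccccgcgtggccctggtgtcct
Hmgcs1: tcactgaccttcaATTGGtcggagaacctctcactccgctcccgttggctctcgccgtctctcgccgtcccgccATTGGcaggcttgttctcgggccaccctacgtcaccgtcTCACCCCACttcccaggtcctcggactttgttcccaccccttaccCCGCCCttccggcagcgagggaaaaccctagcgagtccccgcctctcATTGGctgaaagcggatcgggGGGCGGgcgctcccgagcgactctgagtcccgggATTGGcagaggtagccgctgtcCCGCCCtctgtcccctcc
The Cyp51 window is chr5:4104648-4104947 on the minus strand, with a GC box at position 116 and a CCAAT box at position 222, counted from 1 at the 5′ end. That of Fasn is chr11:120824498-120824797 on the minus strand, with CCAAT letters at 161 and 189 and, overlapping the latter on the other strand, at 192. The Hmgcs1 window is chr13:119690101-119690400 on the plus strand, with the sterol response element at position 114 and CCAAT letters at 14, 75, 206 and 261 and GC boxes at 159, 227 and 283. A match describes letters only, and binding was not measured.

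Total counts per library ran from 15991826 to 22932095. The lowest count of any of the 33 genes in any library was 48, for Tm7sf2 and Scd1, and the highest was 5922, for Srebf2. LNP-GFP 3 stood apart from the other libraries in 1 respect. Among 10930 genes with a mean of at least 100 counts, its CPM (the count scaled for library depth with TMM factors) lay between those of LNP-GFP 1 and 2 for 67.4%, against 16.2 to 38.3% for each of the other 5 libraries relative to their own group. Whether it is an independent library was not settled by the files, and the SD, SE and p-values count it as one. The edgeR calls of named genes are therefore given with and without it. So are the medians of the 33 genes, of the sterol enzymes and of the fatty acid enzymes. Estimates of single genes that were not called mostly include it. Defining monocyte markers were present in every library, with Itgam and Lyz2 among them, and the 8 monocyte markers summed to 8143 to 11058 CPM. Of these 8, Ly6c2 and Fcgr1 rose in LNP-Gsdme and Cd14 fell. Csf1r and Lyz2 were lower in LNP-Gsdme without overlap but did not pass (edgeR adjusted p = 0.104 and 0.12). Itgam, Ccr2 and Adgre1 overlapped between the groups. Ly6c2, a gene of the sort marker Ly6C, stood at 211 to 267 CPM in LNP-GFP and 1374 to 1856 CPM in LNP-Gsdme. Markers of other cell types were present as well. The 7 melanoma markers summed to 324, 1752 and 1054 CPM in LNP-GFP and to 124, 170.1 and 724 CPM in LNP-Gsdme, with overlap, and 0 of the 7 passed by edgeR or DESeq2 (1 was lower at an unadjusted p below 0.05). The 7 fibroblast markers summed to 8627, 9795 and 9189 CPM and to 2819, 2074 and 5419 CPM, and 3 of the 7 fell. Of 5 dendritic cell markers 2 fell (Xcr1 and Cd209a; median log2 fold change -1.05), of 5 endothelial markers 1 fell (Vwf; median -0.85), and of 4 tested NK cell markers 1 rose (Gzma; median 1.02). Of 6 tested neutrophil markers 1 rose (Elane, with at most 25 counts in any library), with a median of 0.32. The 5 T cell markers summed to 330, 112 and 223 CPM in LNP-GFP and to 369, 358 and 281 CPM in LNP-Gsdme. Those T cell sums overlapped, and 0 of the 5 passed by edgeR. Of 5 proliferation markers 1 fell (Mki67, by 0.55 on the log2 scale), with a median of -0.36. Without LNP-GFP 3, Ly6c2 alone of these marker calls still passed (edgeR adjusted p = 0.0269). The part of these markers in the results below was not tested. Of 7 adipocyte markers, Adipoq, Plin1, Cidec and Lep had at most 12 counts in any library and Cfd at most 37. Fabp4 and Pparg, which macrophages also express, stood at 29.8 to 71.9 and 24.8 to 45.97 CPM; neither passed, with Fabp4 lower and Pparg higher in LNP-Gsdme without overlap. In sorted bulk samples, fewer cells of a type and less RNA per cell cannot be told apart.

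Of the 33 genes, 4 fell in LNP-Gsdme and 0 rose: Fdps and Cyp51 of sterol synthesis, and Acaca and Fasn of fatty acid synthesis (edgeR quasi-likelihood test, adjusted p below 0.05 over 16010 genes). Among all genes tested, 5.32% were called lower and 6.3% higher. At an unadjusted p below 0.05, 16 of the 33 were lower and 1 was higher, against 15.4% and 16.1% of all genes. DESeq2 called 10 lower and 0 higher, against 9.4% and 9.64% of all genes, and limma-voom 4 and 0. The estimate was below 0 for 27 of the 33 genes, against 50.7% of all genes tested, and the median log2 fold change was -0.25, against -0.007. In 16 genes every LNP-Gsdme library lay below every LNP-GFP library, and in 1 gene (Pmvk) above. Over all genes these shares were 18.2% and 19.6%. The 33 genes were measured in the same 6 libraries, so their values are not independent of each other.

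The 4 calls did not hold when single libraries were left out. Without LNP-GFP 3, 0 of the 33 genes passed in either direction by edgeR, against 0.148% of all genes lower and 0.395% higher. At an unadjusted p below 0.05, 9 of the 33 were then lower and 1 was higher, against 10.1% and 11.6% of all genes. The median of the 33 was -0.30. All 4 calls ended without LNP-Gsdme 1, without LNP-Gsdme 2 and without LNP-GFP 2 as well, and in the last case Srebf2 passed. Without LNP-GFP 1 the calls were Hmgcs1, Fdps, Sqle, Lss and Fasn, and without LNP-Gsdme 3 they were Fasn, Scd1 and Fads2, lower in each case. Over the whole table, 1216 genes were called lower without LNP-GFP 1, 1201 without LNP-Gsdme 3 and 353 without LNP-GFP 2. Without LNP-Gsdme 1 and without LNP-Gsdme 2 these numbers were 46 and 68.

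**Figure D1:**
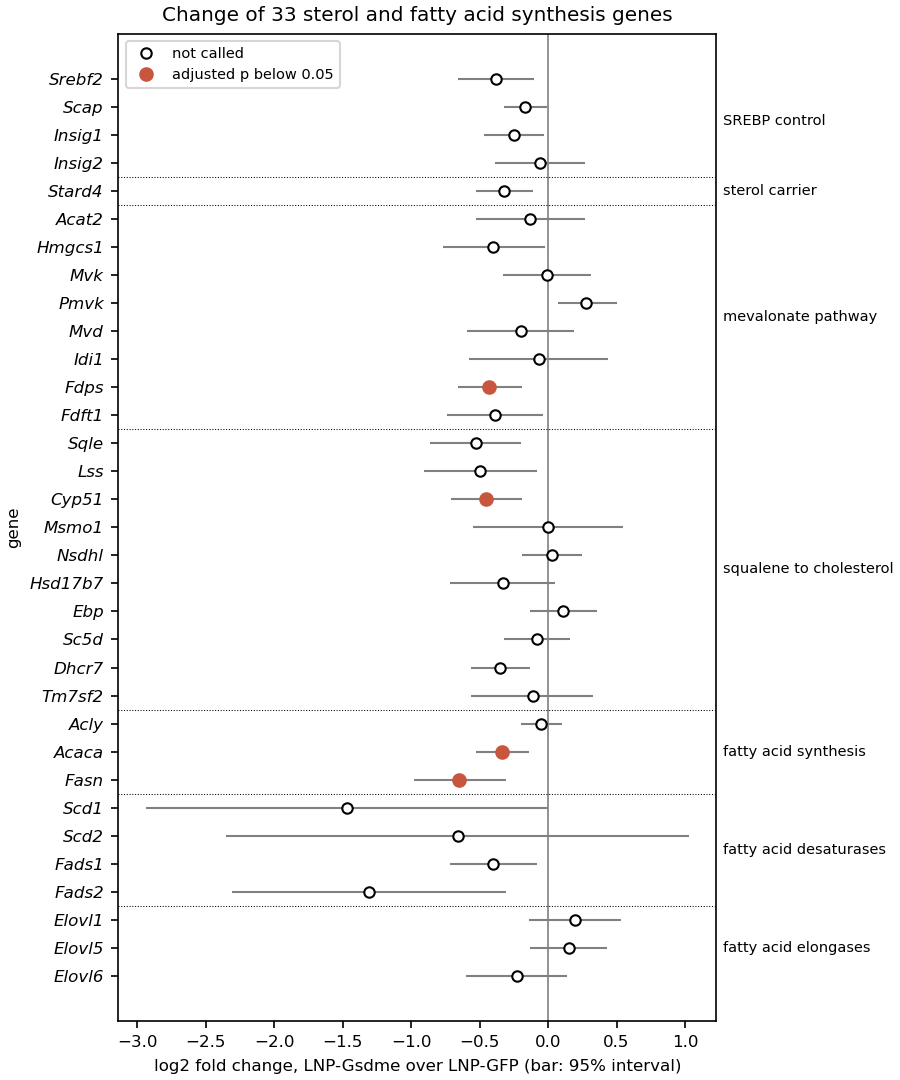
Log2 fold change of each of the 33 genes (rows, by role), LNP-Gsdme over LNP-GFP, with the 95% interval from the edgeR fit as a bar; filled points passed the adjusted test. The 4 filled points are Fdps, Cyp51, Acaca and Fasn, all below 0, and the widest bars belong to Scd1 and Scd2.

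Levels per length differed widely among the 33 genes. By the deposited FPKM (fragments per kilobase of gene, scaled for depth), Insig1 was highest in LNP-GFP, at 53.5 ± 4.13 (SD), followed by Acly at 31.3 ± 0.334 and Elovl5 at 29.8 ± 3.63. Acly makes acetyl-CoA from citrate, and Elovl5 lengthens polyunsaturated chains. In LNP-Gsdme they stood at 30.8 ± 0.483 and 33.6 ± 3.08 FPKM (SD), and neither passed the edgeR test. Srebf2 stood at 20.6 ± 2.93 FPKM and Cyp51, the highest of the sterol enzymes, at 15.9 ± 1.10 FPKM. At the low end were Acaca (1.17 ± 0.0579 FPKM), Elovl6 (0.711 ± 0.0904), Lss (0.634 ± 0.116) and Tm7sf2 (0.317 ± 0.0623). These levels depend on the gene length the authors used, which works out at 18461 bases for Lss and 20271 bases for Acaca.

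**Figure D2:**
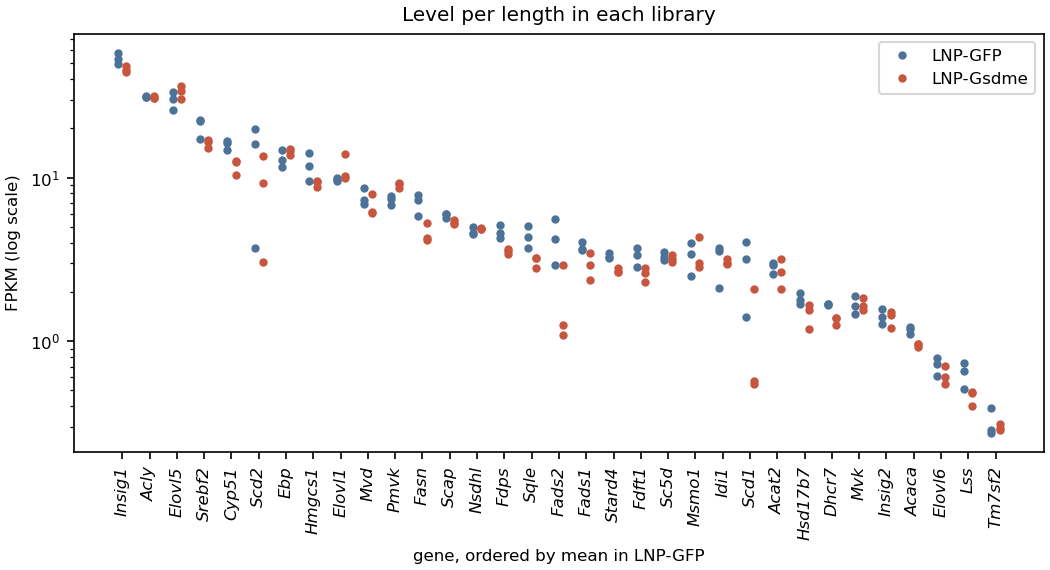
FPKM of each gene in each library (points, log axis), ordered by the mean in LNP-GFP, with LNP-GFP and LNP-Gsdme libraries in separate colours. Insig1 is highest and Tm7sf2 lowest, and Scd2, Scd1 and Fads2 spread most widely among libraries of 1 group.

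Among the genes that control SREBP-2, none of 4 passed in the edgeR test, although all 4 estimates were below 0. At an unadjusted p below 0.05, 3 were lower, against 15.4% of all genes. DESeq2 called 1 lower, Srebf2, against 9.4% of all genes. Srebf2 (chromosome 15, 82031382 to 82089580; gene coordinates here are GRCm39), which encodes SREBP-2 itself, stood at 258, 207 and 267 CPM against 199.96, 191 and 172 CPM. The groups did not overlap, with LNP-GFP 2 closest to the LNP-Gsdme libraries. For Srebf2 the log2 fold change came to -0.38 ± 0.12 (SE; edgeR adjusted p = 0.0838, and 0.0333 to 0.25 over the alternatives). Insig1, the retention protein whose own gene is a sensitive SREBP target, stood at 172, 205 and 185 CPM against 158, 166 and 148 CPM. All 3 LNP-Gsdme libraries were below the lowest LNP-GFP library, and the estimate was -0.25 ± 0.09 on the log2 scale (SE; edgeR adjusted p = 0.118). Scap, the escort protein, went from 52.7 ± 1.21 to 46.9 ± 0.405 CPM (SD), also without overlap, with an adjusted p of 0.131 by edgeR. Insig2, the second retention protein, overlapped between the groups at 9.16 to 12.1 CPM. Its log2 fold change was -0.06, with a 95% interval of -0.39 to 0.27. Stard4, a soluble carrier that moves cholesterol between membranes, stood at 22.0 to 24.0 CPM in LNP-GFP and at 17.4 to 19.1 CPM in LNP-Gsdme (log2 fold change -0.32 ± 0.09 SE; edgeR adjusted p = 0.0604).

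In the mevalonate pathway 1 of 8 genes fell and 0 rose by edgeR, against 5.32% and 6.3% of all genes tested. Fdps (ENSMUSG00000059743, chromosome 3, 89000895 to 89009266), farnesyl diphosphate synthase, stood at 26.2, 29.7 and 24.7 CPM against 20.5, 19.3 and 20.2 CPM. The LNP-Gsdme libraries lay close together and below every LNP-GFP library. The change of Fdps came to -0.43 ± 0.10 on the log2 scale (SE; edgeR adjusted p = 0.0405, and 0.116 without LNP-GFP 3). Hmgcs1, the cytosolic synthase that commits acetyl units to the pathway, stood at 64.5, 98.1 and 80.7 CPM and at 65.2, 62.9 and 56.8 CPM. LNP-GFP 1 was level with the LNP-Gsdme libraries and LNP-GFP 2 stood highest, so the groups overlapped. Its log2 fold change was -0.40, with a 95% interval of -0.77 to -0.02 (edgeR adjusted p = 0.14). Pmvk, phosphomevalonate kinase, had the one positive estimate without overlap, at 23.2, 21.8 and 24.5 CPM against 29.1, 29.1 and 26.3 CPM. The estimate was 0.28 ± 0.09 on the log2 scale (SE; edgeR adjusted p = 0.0888). DESeq2 and limma-voom called 0 members higher too. Mvd, the decarboxylase after that step, stood at 13.6, 17.3 and 14.4 CPM against 15.8, 12.04 and 11.5 CPM, with overlap.

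The remaining 4 mevalonate genes did not pass. Fdft1, squalene synthase, went from 21.8 ± 3.15 to 16.6 ± 1.99 CPM (SD; edgeR adjusted p = 0.125). Its span overlaps that of Ctsb, a far more abundant lysosomal protease gene, so its count depends on how reads were assigned. Acat2, Mvk and Idi1, which make acetoacetyl-CoA, phosphorylate mevalonate and isomerise the isoprenoid unit, had log2 fold changes of -0.13, -0.01 and -0.07. For these 3 genes the sign of the estimate changed with at least 1 left-out library. Idi1 was uneven among controls, at 24.9, 26.6 and 14.9 CPM in LNP-GFP.

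Between squalene and cholesterol, 1 of 10 genes fell and 0 rose by edgeR, against 5.32% and 6.3% of all genes tested. DESeq2 called 3 lower and 0 higher, against 9.4% and 9.64% of all genes. Cyp51 (ENSMUSG00000001467, chromosome 5, 4131145 to 4154746), the lanosterol demethylase whose promoter window is printed above, stood at 91.0, 81.2 and 88.5 CPM against 68.9, 67.1 and 54.5 CPM. The groups were apart, and LNP-Gsdme 3, the LNP-Gsdme library with the most melanoma and fibroblast marker RNA, was the lowest. On the log2 scale Cyp51 changed by -0.45 ± 0.11 (SE; edgeR adjusted p = 0.0448, and 0.153 without LNP-GFP 3). The span of Cyp51 overlaps that of Akap9, whose counts summed to 43.1% of those of Cyp51. Sqle, squalene epoxidase, a control point of the late pathway, ranged from 31.6 to 44.2 CPM in LNP-GFP and from 23.8 to 27.8 CPM in LNP-Gsdme. The estimate was the most negative of the 18 sterol enzymes, at -0.53 ± 0.14 on the log2 scale (SE; edgeR adjusted p = 0.0546). Dhcr7, a reductase that acts just before cholesterol, was even among controls and went from 17.99 ± 0.299 to 14.1 ± 0.783 CPM (SD; edgeR adjusted p = 0.0555). Lss, which closes the sterol rings, went from 11.8 ± 2.30 to 8.39 ± 0.870 CPM (SD; edgeR adjusted p = 0.111).

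The other 6 late enzymes showed no call in the edgeR test. Hsd17b7, a sterol ketoreductase, had a log2 fold change of -0.33 (adjusted p = 0.212). Ebp, a sterol isomerase, stood at 52.3, 42.4 and 46.1 CPM against 52.3, 53.0 and 47.1 CPM, which overlapped (95% interval of the log2 fold change -0.13 to 0.36). Nsdhl and Sc5d, a demethylating dehydrogenase and a desaturase of the ring, had intervals of -0.19 to 0.25 and -0.32 to 0.16. Msmo1, the methyl oxidase, varied within both groups (33.04 ± 7.63 and 33.1 ± 8.22 CPM; SD), and its interval reached from -0.55 to 0.55. Tm7sf2, a sterol reductase with 48 to 91 counts per library, overlaps Vps51, and its interval was -0.56 to 0.33.

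**Figure D3:**
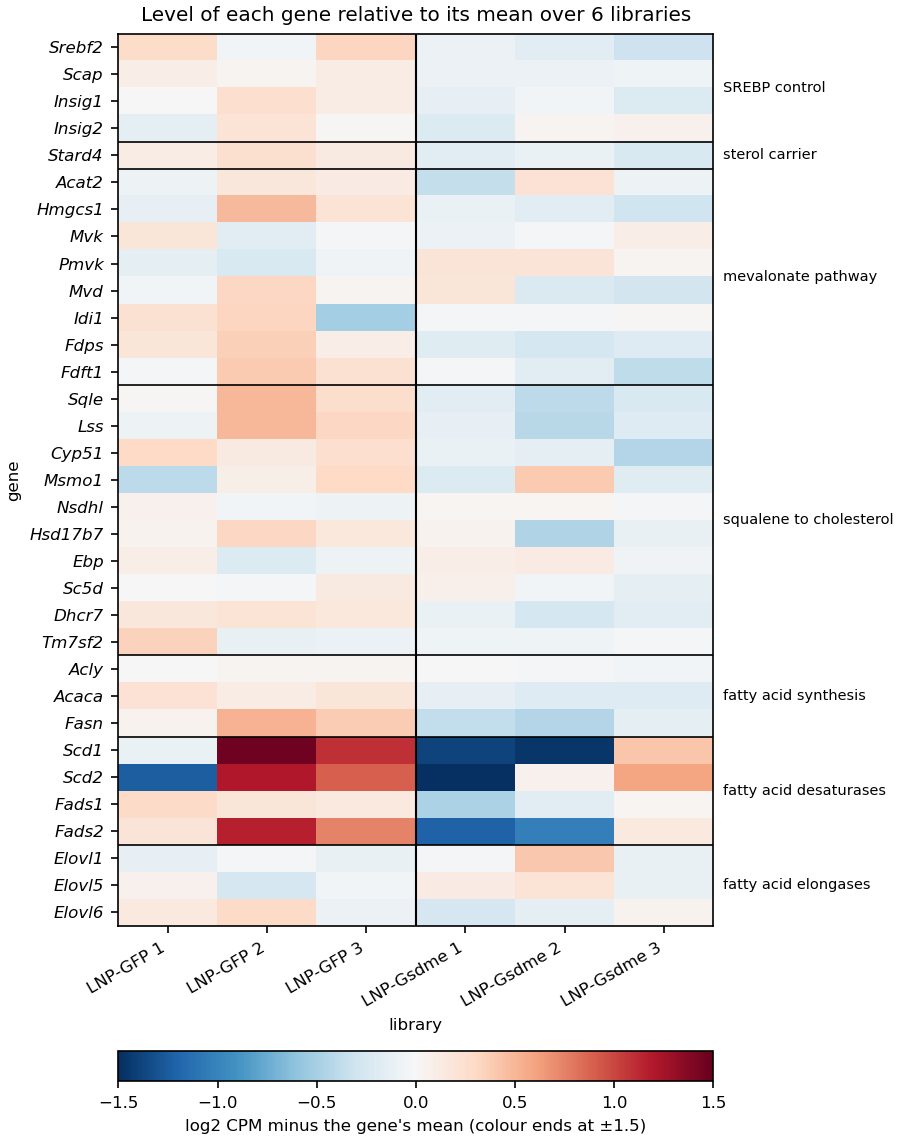
Log2 CPM of each of the 33 genes (rows, by role) in each library (columns) minus its mean over the 6 libraries, in colour. Most sterol genes are paler in colour than the desaturases Scd1, Scd2 and Fads2, which are high in LNP-GFP 2 and 3 and low in LNP-Gsdme 1.

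The 3 enzymes that make palmitate from citrate gave 2 calls: Acaca and Fasn fell, and Acly did not pass. Of all genes tested, 5.32% were called lower. Fasn (ENSMUSG00000025153, chromosome 11, 120696672 to 120715373), fatty acid synthase, stood at 81.3, 112 and 102 CPM against 60.4, 57.6 and 70.8 CPM. Each LNP-Gsdme library was below each LNP-GFP library. On the log2 scale Fasn changed by -0.65 ± 0.14 (SE; edgeR adjusted p = 0.036, and 0.147 without LNP-GFP 3). It passed in 10 of the 15 alternatives, more than any other of the 33 genes. Acaca (ENSMUSG00000020532, chromosome 11, 84020498 to 84292477), acetyl-CoA carboxylase, which makes malonyl-CoA, stood at 24.8, 23.0 and 24.2 CPM and at 19.6, 18.7 and 18.7 CPM. Libraries within each group lay close together. Acaca changed by -0.34 ± 0.08 on the log2 scale (SE; edgeR adjusted p = 0.0467, and 0.177 without LNP-GFP 3). Acly stood at 254, 261 and 262 CPM against 253, 249 and 248 CPM. Its log2 fold change was -0.05, and the 95% interval, -0.20 to 0.10, leaves out changes of the size estimated for Fasn and Acaca.

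Scd1, Fads2 and Scd2 had the most negative estimates of the 33 genes and the widest intervals, and 0 of the 4 desaturases passed by edgeR. At an unadjusted p below 0.05, 3 of the 4 were lower, against 15.4% of all genes. DESeq2 called Scd1 and Fads2 lower, against 9.4% of all genes. Scd1, a stearoyl-CoA desaturase that makes oleate, stood at 7.68, 22.7 and 17.6 CPM against 3.15, 2.99 and 11.0 CPM. LNP-Gsdme 3 lay above LNP-GFP 1, so the groups overlapped. For Scd1 the estimate came to -1.47 ± 0.61 on the log2 scale (SE; edgeR adjusted p = 0.158). Scd2, its close paralog, stood at 26.7, 146 and 117 CPM and at 22.2, 66.4 and 94.98 CPM. The lowest library of each group was alike and the interval of its log2 fold change ran from -2.35 to 1.03. Reads shared between these paralogs could have been counted for either. Fads2, which starts the further desaturation of essential fatty acids, stood at 10.4, 20.6 and 15.3 CPM against 3.93, 4.49 and 10.2 CPM. LNP-Gsdme 3 and LNP-GFP 1 were nearly equal (log2 fold change -1.31 ± 0.42 SE; edgeR adjusted p = 0.0892). Fads1, the partner of Fads2 in that pathway, was even among controls and went from 32.5 ± 1.71 to 24.6 ± 4.17 CPM (SD; edgeR adjusted p = 0.101).

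The library order of some of these genes was that of the melanoma markers. For all 7 melanoma markers LNP-GFP 2 was highest in its group, LNP-GFP 3 next and LNP-GFP 1 lowest, and LNP-Gsdme 3 was highest in its group. Scd1, Scd2, Fads2 and Fasn had this order, 4 of the 10 fatty acid genes, as did 0 of the 18 sterol enzymes and, of the regulators, Insig2. Over all tested genes 13.3% had it. The sum of the 7 fibroblast markers had this order too. That sum stood at 8627, 9795 and 9189 CPM in LNP-GFP and at 2819, 2074 and 5419 CPM in LNP-Gsdme. Of these 7 markers, Col1a1 and Pdgfrb did not have the order. The order was looked for after the values had been seen. In LNP-GFP, Scd2 stood at 26.7 CPM beside a melanoma sum of 324 CPM and at 146 CPM beside 1752 CPM. In LNP-Gsdme 2, however, Scd2 stood at 66.4 CPM beside a melanoma sum of 170.1 CPM. Fasn was lower in LNP-Gsdme 3 (70.8 CPM, melanoma sum 724 CPM) than in LNP-GFP 1 (81.3 CPM, sum 324 CPM). The part of tumour cell or fibroblast RNA in the fatty acid results was not tested.

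**Figure D4:**
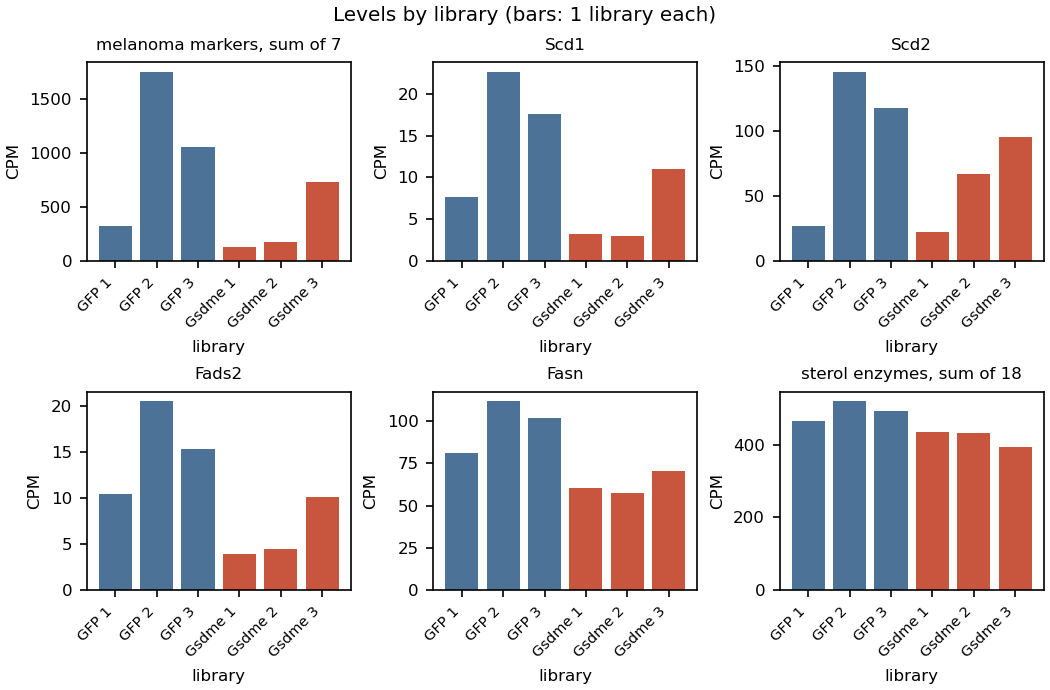
CPM in each library (bars, 1 library each, LNP-GFP in blue and LNP-Gsdme in red) for the sum of 7 melanoma markers, for Scd1, Scd2, Fads2 and Fasn, and for the sum of 18 sterol enzymes. In the first 5 panels LNP-GFP 2 is the highest and LNP-GFP 1 the lowest control, and LNP-Gsdme 3 the highest of its group; the sterol sum lies between 395 and 522 CPM.

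The 3 elongases overlapped between the groups and 0 passed by edgeR, by DESeq2 or at an unadjusted p below 0.05. Elovl5 stood at 129, 103 and 119 CPM against 134, 141 and 114 CPM. Elovl1, which makes very long saturated chains, stood at 51.0, 54.2 and 51.1 CPM against 54.6, 73.4 and 51.2 CPM, with LNP-Gsdme 2 alone standing out. Its span overlaps that of Cdc20, whose counts summed to 22% of those of Elovl1. Elovl6, which lengthens palmitate, ranged from 6.12 to 8.93 CPM over all libraries. The 95% intervals of the log2 fold change were -0.13 to 0.43 for Elovl5, -0.14 to 0.53 for Elovl1 and -0.60 to 0.14 for Elovl6.

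Set side by side, 2 of 18 sterol enzymes and 2 of 10 fatty acid enzymes fell, and neither class had a member that rose. Over all genes tested, 5.32% were called lower and 6.3% higher. The median log2 fold change was -0.17 for the sterol enzymes, in a range of -0.53 to 0.28, and -0.37 for the fatty acid enzymes, in a range of -1.47 to 0.20. Without LNP-Gsdme 1 these medians were -0.24 and -0.26, and without LNP-GFP 3 they were -0.25 and -0.37. Groups did not overlap, with LNP-Gsdme lower, for 7 of 18 and for 5 of 10 (18.2% of all genes). Summed over the 18 sterol enzymes, the libraries stood at 467, 522 and 493 CPM against 436, 434 and 395 CPM. The sums of the 2 groups did not overlap. For the 10 fatty acid enzymes the sums were 627, 782 and 747 CPM and 577, 645 and 655 CPM, and LNP-Gsdme 2 and 3 lay above LNP-GFP 1. For Acly, Acaca and Fasn alone, the sums were 360.2, 396 and 388 CPM in LNP-GFP and 333, 325 and 338 CPM in LNP-Gsdme, without overlap. Whether the 2 classes differ from each other was not tested.

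Other genes of the same pathways gave few calls. Of 15 genes of sterol trafficking and SREBP control, 2 fell and 0 rose by edgeR, and the median log2 fold change was 0.01. DESeq2 called 4 lower and 2 higher. Over all genes tested, edgeR called 5.32% lower and 6.3% higher, and DESeq2 called 9.4% lower and 9.64% higher. Lrp8, a receptor of the lipoprotein receptor family, stood at 21.6, 25.7 and 22.1 CPM and at 16.2, 17.7 and 15.8 CPM. All LNP-Gsdme libraries of Lrp8 were below all LNP-GFP libraries, with a log2 fold change of -0.48 ± 0.11 (SE; edgeR adjusted p = 0.0371, and 0.128 without LNP-GFP 3). Of 4 oxysterol enzymes 1 rose and 1 fell. Ch25h (chromosome 19, 34451178 to 34452564), which makes 25-hydroxycholesterol, stood at 12.9, 9.71 and 8.99 CPM against 21.4, 17.4 and 22.6 CPM. Every LNP-Gsdme library was above every LNP-GFP library, and the change was 0.96 ± 0.17 on the log2 scale (SE; edgeR adjusted p = 0.0243, and 0.112 without LNP-GFP 3). Cyp7b1, which breaks oxysterols down, stood at 2.22, 3.94 and 3.10 CPM against 1.29, 0.936 and 1.24 CPM. It fell by 1.41 on the log2 scale (edgeR adjusted p = 0.0289, and 0.122 without LNP-GFP 3). Of 29 further fatty acid genes 23 could be tested, of which Fads6, a desaturase-like gene at 0.785 to 2.70 CPM, rose (log2 fold change 1.15; edgeR adjusted p = 0.0443, and 0.16 without LNP-GFP 3) and 0 fell. DESeq2 called 2 higher and 3 lower. The median of the 23 was -0.08. The calls of Lrp8, Ch25h, Cyp7b1 and Fads6 also ended without LNP-GFP 2, without LNP-Gsdme 1 and without LNP-Gsdme 2, that of Lrp8 without LNP-Gsdme 3 (adjusted p = 0.0693) and that of Fads6 without LNP-GFP 1 (0.0623). In 6 of the 23 the libraries had the order of the melanoma markers, against 13.3% of all tested genes. These were Me1, Elovl7, Hacd1, Fads3, Acsl1 and Acsl3, named after their values were seen. All 6 estimates were below 0 without passing.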

How the data were processed

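RNA was measured by paired-end sequencing in 6 libraries. The authors deposited 1 table with raw counts and FPKM per gene, per the file headers. GRCm39 is the build in the submitters' processing notes. An aligner, counting tool, strand setting or annotation release was not given in the sources used here. The deposited counts are whole numbers and were the input of every test. The deposited FPKM are these counts over a gene length and the library total (the implied length of a gene varied by no more than 0.00178% among libraries, over 11356 genes with over 50 counts in each) and served only to compare levels between genes. Without a known strand setting, reads of overlapping genes cannot be told apart; 8 of the 33 genes overlap another gene with counts in every library.

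Groups came from the treatment labels and replicate numbers from the titles. Tests on the counts used edgeR 4.0.16 under R 4.3.3, with filterByExpr by group (16010 genes kept), TMM factors, and the robust quasi-likelihood test, with Benjamini-Hochberg adjustment over all tested genes and a threshold of 0.05. The SE is the log2 fold change over the square root of F, and intervals are at 95%. CPM use the TMM-scaled totals. Alternatives were RLE, upper-quartile or no factors, DESeq2 1.42.0, limma-voom (limma 3.58.1), no robust fitting, 2 other filters (none, or at least 1 CPM on average with 10 counts in 3 libraries), a replicate block, a threshold of 0.1 and each library left out. Lists are described by counts and medians, with no test. All 33 genes are named; values in every library are given for those called and the 12 highest by FPKM, and for Scd1 and Fads2, added after their values were seen. Of the related lists the called genes are named, except 1 that is not reported here, and the genes in the melanoma marker order were chosen after their values were seen. The members and lists were chosen with earlier results of these data known, and they do not cover every gene of these pathways.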

Additional observations from a re-analysis of the deposited data

How the results depend on the processing

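The 4 genes that passed (Fdps, Cyp51, Acaca and Fasn) also passed with RLE factors, limma-voom, DESeq2, upper-quartile factors, the stricter filter and without robust fitting. The sterol enzymes called lower numbered 2, against 4 with upper-quartile factors, 4 with DESeq2, 4 at a threshold of 0.1 and 0 without a filter on low counts; 0 to 4 were called with 1 library left out. The fatty acid enzymes called lower numbered 2, against 4 with DESeq2, 1 without scaling factors and 1 without a filter; 0 to 3 were called with 1 library left out. Of the regulators and carrier 0 were called, against 1 with upper-quartile factors and 2 with DESeq2 or at a threshold of 0.1; 0 to 1 were called with 1 library left out. At that threshold 1 sterol enzyme was called higher. With 1 library left out, the median log2 fold change of the sterol enzymes ran from -0.25 to -0.12 and that of the fatty acid enzymes from -0.42 to -0.26. Among all tested genes 1859 were called, against 3048 with DESeq2 (1543 higher, 1505 lower), 3538 at a threshold of 0.1 and 88 to 2841 with 1 library left out. With upper-quartile factors 1055 of all genes were called lower, against 851 in the main test. The median log2 fold change of all genes was then -0.052, against -0.007. The cause of these differences was not tested.

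The replicate numbers are shared between groups but were not treated as pairs: correlations of same-numbered libraries' deviations from their group means were 0.27, -0.30 and 0.07, and 2 of the 3 LNP-GFP libraries correlated best with their own number. With the replicate block 155 genes were called, 0 sterol and 0 fatty acid enzymes among them.

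Estimates near 0 changed sign without passing. Without scaling factors Mvk was at 0.016, and with upper-quartile factors Msmo1 was at -0.045 and Nsdhl at -0.018. With 1 library left out, Insig2 ran from -0.13 to 0.037, Acat2 from -0.29 to 0.0034, Mvk from -0.081 to 0.093, Idi1 from -0.28 to 0.088, Msmo1 from -0.22 to 0.16 and Tm7sf2 from -0.19 to 0.063. At 48 to 91 counts Tm7sf2 is the gene that counting error limits most.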
